A study of Rattus norvegicus with 4 samples.

Results

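Genes of the amino acid and neurotransmitter transporters were followed in whole choroid plexus from rats of either sex, in epithelial cells sorted from male choroid plexus and in kidney proximal tubules of male rats. The group holds 44 of the 32883 genes in the files. It was made of every gene on the study's lists of transporters and pumps for male choroid plexus, FACS epithelial cells or proximal tubule whose name begins with SLC1A, SLC3A, SLC6A, SLC7A, SLC17A, SLC18, SLC32A, SLC36A, SLC38A or SLC43A. No gene of the SLC32 family was on those lists. Another 219 transporters and pumps on the same lists served as a comparison.

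All animals were Sprague Dawley rats aged 9 weeks. Male choroid plexus was pooled from 5 rats, female choroid plexus from 5 rats and proximal tubules from 5 male rats, while the epithelial cells came from 10 male rats and were captured with an antibody against NKCC1, a cotransporter of the epithelial cell surface. The whole plexus was taken from the lateral and the fourth ventricles, and tubules were freed from kidney by enzymes and picked by hand. For sorting, plexus was minced and digested with collagenase, a step not described for the whole tissue. In the FACS library, the choice of cells and the effects of this digestion cannot be told apart. As the methods of the study read, the kidneys were those of the male rats that gave plexus, so the male plexus and tubule pools appear to share animals. Each condition was 1 library, so no difference between libraries could be set against a spread between animals, no p-value was computed, and all intervals here cover counting error alone.

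Expected counts, the estimated reads per gene, summed to 23873318 to 28324976 in the 4 libraries. Mitochondrially encoded genes took 4.32 to 5.34% of them in the 3 choroid plexus libraries and 70.7% in the proximal tubule, which left 7352952 counts for all other tubule genes. TPM, the unit of the levels given here, is an abundance per transcript length that sums to the same total in every library, and the cut-off for a transcribed gene was 0.5 TPM. All 6 proximal tubule markers had counts in the tubule library, and so did all 5 markers of other nephron segments, such as KCNJ1 at 24.9 TPM. Of the 10 markers of choroid plexus epithelium, 5 had 0 counts there and TTR had 1 count. The others stood at 56.55 TPM for PRLR, 13.3 TPM for AQP1, 10.4 TPM for FOLR1 and 0.40 TPM for KL. In bulk libraries of this kind, fewer cells of a type and less RNA per cell cannot be told apart.

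Amino acids cross epithelia through carriers in the apical and the basolateral membrane. Na+-coupled carriers concentrate amino acids in the cell, and exchangers swap one for another across the membrane. In the kidney proximal tubule this machinery reclaims filtered amino acids, and in the choroid plexus, which secretes cerebrospinal fluid, it moves amino acids between blood and that fluid. The SLC6 and SLC1 families also hold the carriers that take up GABA, glycine and glutamate at synapses.

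Of the 44 genes, 34 were on the male choroid plexus list, 34 on the FACS list and 19 on the proximal tubule list. The male and FACS lists without the tubule list shared 22 of them, and 10 were on all 3 lists. Another 8, namely SLC1A1, SLC6A18, SLC6A19, SLC7A9, SLC7A13, SLC17A2, SLC17A3 and SLC17A4, were on the tubule list alone. SLC6A12 and SLC43A1 were on the FACS list alone, SLC6A13 on the male list alone, and SLC1A2 on the male and tubule lists. These lists rest on the cut-off, so the number of members above it in each library describes the choice and is not a result. Nearest to the cut-off, SLC6A13 was inside the male list at 0.58 TPM and SLC43A1 outside it at 0.40 TPM. In the FACS library SLC38A11 was inside at 0.68 TPM and SLC1A1 outside at 0.27 TPM. The lowest gene on the tubule list was SLC38A3, at 0.49 TPM as deposited and 1.76 TPM after the mitochondrially encoded genes had been removed, and the members outside that list were all at 0.

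The summed TPM of the 44 genes was 978 in the male, 908 in the female and 851 in the FACS library. In the proximal tubule it was 2998 TPM as deposited and 10752 TPM once the 13 mitochondrially encoded genes were removed and the rest rescaled, against 1067 TPM for the male choroid plexus treated likewise. As a share of counts, the group took 0.205% of the male library (95% Wilson interval 0.203 to 0.207%), 0.207% of the female (0.205 to 0.208%), 0.225% of the FACS (0.223 to 0.226%) and 0.831% of the tubule library (0.828 to 0.835%). These shares are of all counts, of which 70.7% were mitochondrially encoded in the tubule. SLC7A13, a member through the tubule list alone, gave 135725 of the 208844 member counts there, so the tubule total is partly set by the choice. The plexus libraries spread this total over many genes, with 15 members at or above 10 TPM in the male, 13 in the female and 12 in the FACS library. In the tubule library 3 members reached 10 TPM as deposited and 5 without the mitochondrially encoded genes, and the 5 highest held 99.3% of the sum, against 66.2% in the male choroid plexus.

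**Figure D1:**
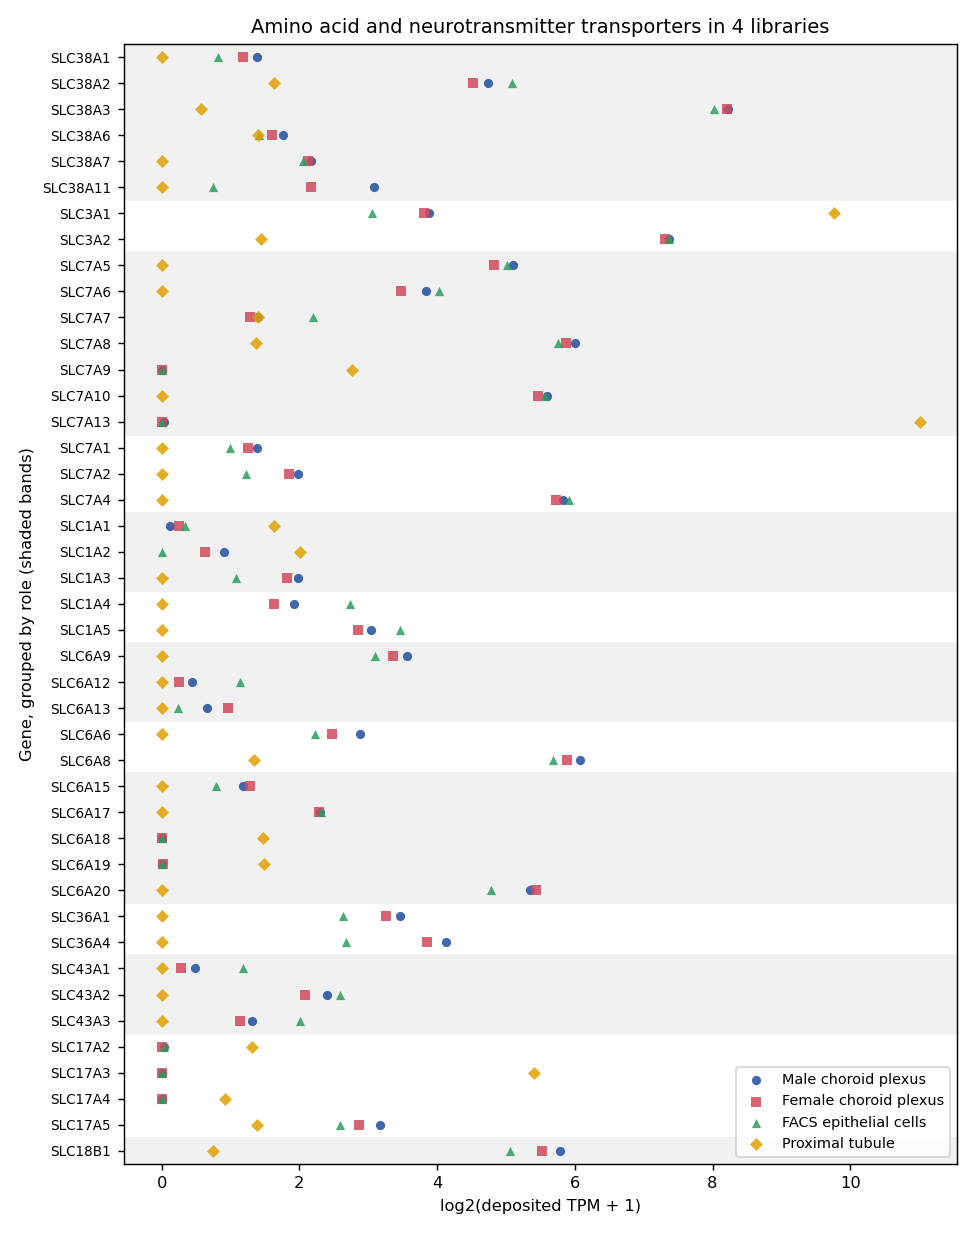
Level of each transporter reported here (rows, grouped by role in shaded bands) in the 4 libraries, as log2 of the deposited TPM plus 1 on the horizontal axis, with 1 point per library. SLC38A3 and SLC3A2 were the highest genes of the plexus libraries, while SLC7A13 and SLC3A1 stood apart in the tubule library.

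Of the male total, the SLC38 family held 34.7%, the SLC7 family 22.4%, the SLC3 family 18.3% and the SLC6 family 13.5%. The order of these 4 families was the same in the female library. In the FACS library it was also the same, with 35.1% for SLC38 and 24.8% for SLC7. In the tubule library SLC7 held 68.9% and SLC3 held 29.1%, which left little for the other 7 families.

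**Figure D2:**
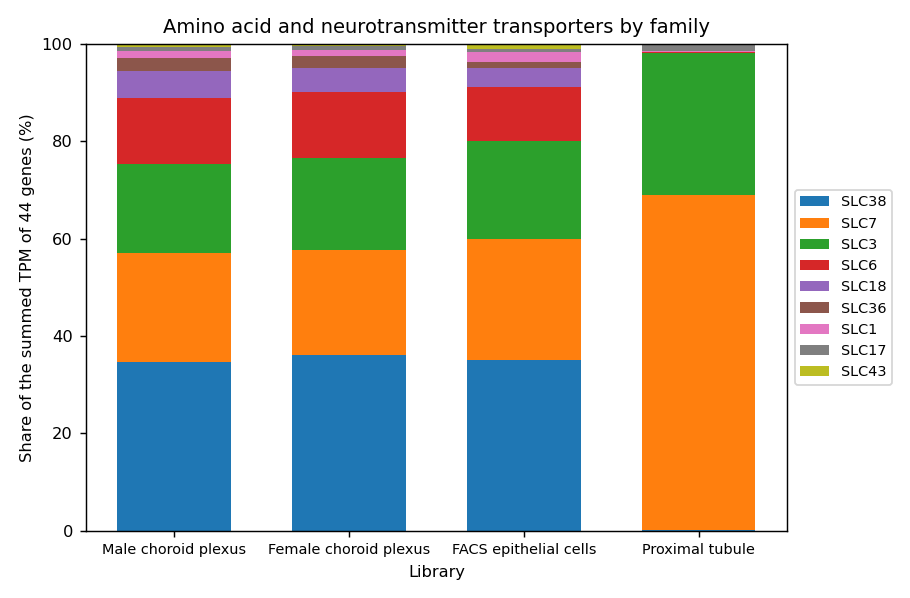
Share of the summed deposited TPM of the 44 transporters held by each of 9 gene families (stacked bars, in percent, starting at 0) in each library. The 3 plexus bars have similar parts, led by SLC38 with 34.7% in the male library, and the tubule bar is nearly all SLC7 (68.9%) and SLC3 (29.1%).

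The SLC38 family of Na+-coupled neutral amino acid carriers was led by SLC38A3 (ENSRNOG00000016827), which carries glutamine, asparagine and histidine. SLC38A3 had 298 TPM in the male library (exact Poisson interval 294 to 303, from 15693 counts), 296 TPM in the female, 259 TPM in the FACS and 0.49 TPM in the tubule library. It was the highest of the 44 genes in each plexus library, held 30.5% of the male sum, and placed 13 among all transporters and pumps of the lists in the male choroid plexus. SLC38A2, a widespread carrier that cells induce when amino acids run short, had 25.8 TPM in the male, 21.97 TPM in the female, 32.9 TPM in the FACS and 2.09 TPM in the tubule library. Thus SLC38A2 was a little higher in the sorted cells than in the tissue, and SLC38A3 a little lower.

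The remaining SLC38 genes were low in the plexus. SLC38A7, a lysosomal glutamine carrier, had 3.48, 3.38 and 3.14 TPM in the male, female and FACS libraries and was listed at 0 in the tubule. For SLC38A6 the same 3 libraries had 2.39, 2.05 and 1.66 TPM, and the tubule had 1.63 TPM. SLC38A1, which supplies neurons with glutamine, had 1.60, 1.27 and 0.76 TPM and was listed at 0 in the tubule. SLC38A11, a little studied member, was the most uneven of the family across the plexus libraries, with 7.48 TPM in the male, 3.52 TPM in the female and 0.68 TPM in the FACS library, and was listed at 0 in the tubule.

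SLC3A1 and SLC3A2 are heavy subunits, single-pass glycoproteins that bring a catalytic light subunit of the SLC7 family to the membrane. SLC3A2 (ENSRNOG00000018487) pairs with SLC7A5, SLC7A6, SLC7A7, SLC7A8 and SLC7A10, and SLC3A1 (ENSRNOG00000007006) pairs with SLC7A9 and SLC7A13. SLC3A2 had 165 TPM in the male, 158 TPM in the female and 165 TPM in the FACS library, but 1.73 TPM in the tubule. SLC3A1 had 13.8 TPM in the male, 13.1 TPM in the female and 7.31 TPM in the FACS library, but 871 TPM in the tubule. The tubule and the plexus therefore held the 2 heavy subunits in opposite order, SLC3A2 being 12.0 times SLC3A1 in the male, 12.1 times in the female and 22.5 times in the FACS library, and SLC3A1 being 504 times SLC3A2 in the tubule.

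The light subunits were summed by the heavy subunit they pair with. The 5 partners of SLC3A2 in the group summed to 159, 140 and 150 TPM in the male, female and FACS libraries. SLC3A2 itself had 165, 158 and 165 TPM there, and the 5 partners summed to 3.21 TPM in the tubule. Any partner outside the group is not in these sums. The 2 partners of SLC3A1 summed to 0.02 TPM in the male library, had 0 counts in the female and FACS libraries, and summed to 2061 TPM in the tubule. So the plexus libraries held SLC3A1 with almost no transcript of either of these partners. SLC7A13 alone had 2055 TPM of the tubule sum. SLC7A9 and SLC7A13 were on the tubule list alone, so their low values in the male and FACS libraries are set by the choice. SLC7A5, SLC7A6 and SLC7A10 were on the plexus lists and not on the tubule list. These sums are therefore no support for the contrast of the heavy subunits.

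Because the 2 heavy subunits had opposite levels, the 250 bases upstream of their start sites are shown, read 5′ to 3′ on the minus strand from RefSeq (GRCr8). SLC3A1 has 1 window (chr6:15394750-15394999) and SLC3A2 has 2 annotated starts (chr1:215048065-215048314 and chr1:215039671-215039920). Capitals mark matches, on either strand, to the TATA box TATAAA, the CREB half-site TGACGT, the HNF1 half-site GTTAAT and the amino acid response element TGATGNAAN.
SLC3A1: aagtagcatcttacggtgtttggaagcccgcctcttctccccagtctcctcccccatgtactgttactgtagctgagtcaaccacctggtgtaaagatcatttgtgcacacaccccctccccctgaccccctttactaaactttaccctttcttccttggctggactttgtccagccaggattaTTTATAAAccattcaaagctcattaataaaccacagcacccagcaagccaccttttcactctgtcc
SLC3A2, upstream start: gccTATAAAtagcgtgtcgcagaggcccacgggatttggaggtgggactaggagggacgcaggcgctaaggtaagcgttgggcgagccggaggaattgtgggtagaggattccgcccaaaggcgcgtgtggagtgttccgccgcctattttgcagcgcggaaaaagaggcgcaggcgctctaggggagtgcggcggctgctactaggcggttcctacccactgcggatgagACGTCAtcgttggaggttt
SLC3A2, downstream start: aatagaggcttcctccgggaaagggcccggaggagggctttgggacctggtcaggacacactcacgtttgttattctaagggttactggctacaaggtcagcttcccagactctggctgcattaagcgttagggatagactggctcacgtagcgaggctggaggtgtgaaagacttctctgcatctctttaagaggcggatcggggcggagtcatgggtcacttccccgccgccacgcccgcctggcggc

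The SLC3A1 window holds TATA letters near its end, overlapping on the 2 strands, and the upstream SLC3A2 window holds 1 TATA and 1 CREB match. No match to these letters stands in the downstream SLC3A2 window. Of all 33469 windows, 12.9% hold the TATA letters, 6.95% the CREB half-site, 6.45% the HNF1 half-site and 3.38% the amino acid response element. By symbol, 30 of the 44 genes had a window, and the response element letters were found for SLC1A4, SLC7A1 and SLC38A1. These letters were searched with the levels known, and a match is only a description of the window.

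Among the partners of SLC3A2 in the group, SLC7A8, an exchanger of neutral amino acids of the basolateral membrane, was the highest in the male library. SLC7A8 had 62.9 TPM in the male, 57.8 TPM in the female, 53.1 TPM in the FACS and 1.58 TPM in the tubule library. SLC7A10, which exchanges small neutral amino acids such as D-serine, had 47.5, 43.0 and 46.6 TPM in the male, female and FACS libraries and was listed at 0 in the tubule. SLC7A5, the carrier of large neutral amino acids and thyroid hormone at the blood-brain barrier, had 33.4, 27.5 and 31.5 TPM in the same libraries and was also listed at 0 in the tubule.

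SLC7A6 and SLC7A7 exchange cationic for neutral amino acids. For SLC7A6 the values were 13.3 TPM in the male, 10.1 TPM in the female, 15.3 TPM in the FACS library and a listed 0 in the tubule. SLC7A7 had 1.65 TPM in the male, 1.44 TPM in the female, 3.58 TPM in the FACS and 1.63 TPM in the tubule library. SLC7A6 was thus the more abundant of this pair in the plexus, and SLC7A7 was the only one of them with counts in the tubule.

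SLC7A13 (ENSRNOG00000024903), an aspartate and glutamate carrier of the proximal straight tubule, had 2055 TPM in the tubule library from 135725 counts (exact Poisson interval 2044 to 2066 TPM), which was 68.6% of the summed TPM of the group there. It had 1 count in the male library and 0 counts in the female and FACS libraries. RefSeq lists 2 pseudogenes of SLC7A13, and how reads were divided among such copies was not tested. SLC7A9, which with SLC3A1 takes up cystine and cationic amino acids and is mutated in cystinuria, had 5.81 TPM in the tubule from 310 counts and 0 counts in all 3 plexus libraries.

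The cationic amino acid carriers, which need no heavy subunit, were SLC7A1, SLC7A2 and SLC7A4. SLC7A4, a relative whose substrate is not settled, had 55.7 TPM in the male, 52.0 TPM in the female and 59.2 TPM in the FACS library. SLC7A2 had 2.95, 2.61 and 1.34 TPM in these libraries, and SLC7A1, the widespread arginine and lysine carrier, had 1.60, 1.39 and 1.0 TPM. All 3 were listed at 0 in the tubule, where SLC7A4 was the member with the highest male level among those at 0.

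In the SLC6 family of Na+- and Cl−-coupled carriers, the creatine carrier SLC6A8 and the proline carrier SLC6A20 led. SLC6A8 had 66.2 TPM in the male, 58.0 TPM in the female, 50.3 TPM in the FACS and 1.54 TPM in the tubule library. SLC6A20 had 39.9 TPM in the male, 42.5 TPM in the female and 26.6 TPM in the FACS library and was listed at 0 in the tubule. SLC6A6, the taurine carrier, had 6.34, 4.57 and 3.67 TPM in the plexus libraries and a listed 0 in the tubule. SLC6A17, a neutral amino acid carrier of synaptic vesicles, stood at 3.91, 3.87 and 3.99 TPM, and its relative SLC6A15 at 1.26, 1.44 and 0.73 TPM, both with a listed 0 in the tubule.

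Of the neurotransmitter carriers of the family, SLC6A9, which takes up glycine, had 10.8 TPM in the male, 9.24 TPM in the female and 7.59 TPM in the FACS library. SLC6A12, which carries betaine and GABA, had 0.36, 0.19 and 1.21 TPM, and SLC6A13, which carries GABA, had 0.58, 0.96 and 0.18 TPM. These genes were listed at 0 in the tubule. The sorted cells were thus lowest of the plexus libraries for SLC6A9. SLC6A13 was on the male list alone and SLC6A12 on the FACS list alone. Their direction between the male and FACS libraries is set by the choice.

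SLC6A18 and SLC6A19, apical carriers of neutral amino acids in kidney, had 1.77 and 1.80 TPM in the tubule library. SLC6A18 had 0 counts in each plexus library, and SLC6A19 had 1 count in the female library and 0 in the others. Their upstream windows are shown because, of the 5 genes on the tubule list alone that had a window, these 2 held the HNF1 half-site letters, and SLC7A9, SLC17A3 and SLC17A4 did not. They lie on the plus strand of chromosome 1 in RefSeq (GRCr8), at chr1:31414494-31414743 for SLC6A19 and chr1:31436403-31436652 for SLC6A18, with capitals as above.
SLC6A18: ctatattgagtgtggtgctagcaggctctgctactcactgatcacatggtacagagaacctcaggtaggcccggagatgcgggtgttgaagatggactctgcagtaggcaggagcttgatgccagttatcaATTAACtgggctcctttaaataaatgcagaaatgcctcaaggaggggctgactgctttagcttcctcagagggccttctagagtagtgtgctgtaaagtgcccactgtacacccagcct
SLC6A19: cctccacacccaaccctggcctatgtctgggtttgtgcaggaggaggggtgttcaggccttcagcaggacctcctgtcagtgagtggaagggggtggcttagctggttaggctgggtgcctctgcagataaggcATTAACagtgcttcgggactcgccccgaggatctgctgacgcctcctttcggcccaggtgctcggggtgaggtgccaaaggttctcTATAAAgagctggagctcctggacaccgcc

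The HNF1 half-site letters were in the windows of 2 of all 30 genes with one and in 6.45% of all windows. The SLC6A19 window also holds the TATA letters.

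The SLC1 family splits into carriers of glutamate and carriers of neutral amino acids. SLC1A5, an exchanger of glutamine and other neutral amino acids, had 7.27 TPM in the male, 6.25 TPM in the female and 10.0 TPM in the FACS library, and its relative SLC1A4 had 2.79, 2.10 and 5.65 TPM. Both were listed at 0 in the tubule and were highest in the sorted cells.

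The glutamate carriers were low in the plexus libraries. SLC1A3, the glutamate carrier of astrocytes, had 2.95, 2.55 and 1.11 TPM in the male, female and FACS libraries and was listed at 0 in the tubule. SLC1A2, the main glutamate carrier of forebrain astrocytes, had 0.87 TPM in the male library from 13 counts, 0.55 TPM in the female from 8 counts and 3.03 TPM in the tubule from 67 counts, with 0 counts in the FACS library. SLC1A1, which takes up glutamate in kidney and neurons, had 0.09, 0.19 and 0.27 TPM in the plexus libraries and 2.10 TPM in the tubule. In each plexus library the glutamate carriers summed to less than the neutral pair, 3.91 against 10.1 TPM in the male. SLC1A1 was on the tubule list alone and SLC1A2 was not on the FACS list, while SLC1A4 and SLC1A5 were on the male and FACS lists. Part of this order is therefore set by the choice.

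SLC36A4 and SLC36A1 are amino acid carriers, the latter coupled to protons at the lysosome and the cell surface. SLC36A4 had 16.5 TPM in the male, 13.5 TPM in the female and 5.38 TPM in the FACS library. SLC36A1 had 10.1, 8.60 and 5.18 TPM. Both were lower in the sorted cells and were listed at 0 in the tubule.

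Of the SLC43 genes, SLC43A1 and SLC43A2 carry large neutral amino acids and SLC43A3 carries purine nucleobases. SLC43A2 had 4.26, 3.22 and 5.02 TPM in the male, female and FACS libraries. SLC43A3 had 1.49, 1.20 and 3.04 TPM, and SLC43A1 had 0.40, 0.21 and 1.28 TPM. In all 3 the FACS library was the highest and the female library the lowest of the plexus, and all 3 were listed at 0 in the tubule. For SLC43A1, on the FACS list alone, the direction between the male and FACS libraries is set by the choice.

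The SLC17 family holds carriers of organic anions, and its tubule members sit in the apical membrane and carry urate and phosphate. SLC17A3 had 41.5 TPM in the tubule from 3064 counts and 0 counts in each plexus library. SLC17A2 had 1.48 TPM in the tubule, with 1 count in the male library, 1 in the FACS library and 0 in the female library. SLC17A4 had 0.90 TPM in the tubule and 0 counts elsewhere. SLC17A5, which exports sialic acid from lysosomes, had 8.02, 6.28 and 5.01 TPM in the male, female and FACS libraries and 1.61 TPM in the tubule.

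SLC18B1, the vesicular polyamine carrier, was the single SLC18 gene on the lists. It had 54.4 TPM in the male, 44.9 TPM in the female, 32.4 TPM in the FACS and 0.67 TPM in the tubule library.

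To compare sorted epithelial cells with whole male tissue, log2 ratios of TPM plus a pseudocount of 1 were taken over the genes at or above 0.5 TPM in either library, and a gene was called past 2-fold at a log2 ratio of 1 or more in size. The pseudocount understates the difference of genes with low TPM. Of 36 members compared, 0 were higher past 2-fold in the FACS library, while 4.61% of all 14024 genes were, and 3 were lower past 2-fold, while 25.5% of all genes were. The median log2 ratio was -0.36 for the members, -0.58 for all genes and -0.30 for the other transporters and pumps, of which 2.65% were higher and 14.3% lower past 2-fold. TPM sums to a fixed total, and TTR, the highest gene of the plexus, was at 238565 TPM in the male library and at 389655 TPM among the sorted cells, which leaves less for other genes. Levels of the members ran in much the same order in the 2 libraries, with a Spearman rho of 0.887 across the 36 genes, which share library and depth and are not replicates.

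The genes past 2-fold lower included SLC38A11 and SLC36A4. SLC38A11 went from 179 counts in the male library to 19 in the FACS library, 11.0-fold lower by TPM (95% counting interval 6.83 to 18.7) and -2.34 on the log2 scale with the pseudocount. SLC36A4 was 3.06-fold lower (2.72 to 3.45, log2 ratio -1.45). Among the others that were lower, SLC1A3 was 2.66-fold lower (2.11 to 3.36) and SLC7A2 was 2.21-fold lower (1.67 to 2.93) without the pseudocount. SLC6A13, at 29 and 9 counts, was 3.28-fold lower (1.51 to 7.88). That gene was on the male list alone and passed the cut-off through the male library, so its direction is set by the choice and is no result.

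Relative to the median of all genes, 5 members were higher past 2-fold, against 10.9% of all genes, and SLC38A11 alone was lower past 2-fold, against 6.03% of all genes. The 5 were the neutral carrier SLC1A4, the exchanger SLC7A7, the betaine carrier SLC6A12, and SLC43A1 and SLC43A3, and SLC1A5 was just short of the limit. Without a pseudocount, SLC1A4 was 2.02-fold higher in the FACS library (1.74 to 2.36), SLC7A7 2.17-fold (1.59 to 2.98) and SLC43A3 2.04-fold (1.58 to 2.65). SLC6A12, with 20 counts in the male and 57 in the FACS library, was 3.32-fold higher (1.96 to 5.83). SLC43A1, with 15 and 51 counts, was 3.23-fold higher (1.79 to 6.19). SLC6A12 and SLC43A1 were on the FACS list alone and passed the cut-off through that library, so their direction is set by the choice and these 2 of the 5 are no result.

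Markers of other cells also differed between these libraries. The immune markers CSF1R and CD74 were 4.79-fold (4.51 to 5.08) and 7.42-fold (7.24 to 7.60) higher in the FACS library, going from 16.5 to 79.1 TPM and from 345 to 2556 TPM. The 4 endothelial markers summed to 65.9 TPM in whole male tissue and 76.1 TPM in the sorted cells, the 3 mesenchymal and mural markers to 111 and 74.9 TPM. Of 10 markers of choroid plexus epithelium, 2 were higher and 8 lower in the FACS library, with a median log2 ratio of -0.62, near the -0.58 of all genes, of which 3062 were higher and 10943 lower. The part of these markers in the values of the transporters was not tested.

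Other abundant members differed little. SLC3A2 had a ratio of 1.0 (0.969 to 1.03), SLC7A10 of 0.982 (0.921 to 1.05), SLC7A5 of 0.941 (0.891 to 0.994), SLC7A4 of 1.06 (1.01 to 1.12), SLC38A3 of 0.870 (0.850 to 0.890), SLC7A8 of 0.844 (0.813 to 0.876) and SLC6A8 of 0.759 (0.730 to 0.788). The polyamine carrier SLC18B1 was 1.68-fold lower in the sorted cells (1.58 to 1.78), SLC6A20 1.5-fold (1.39 to 1.62), and SLC3A1 1.88-fold (1.66 to 2.13).

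**Figure D3:**
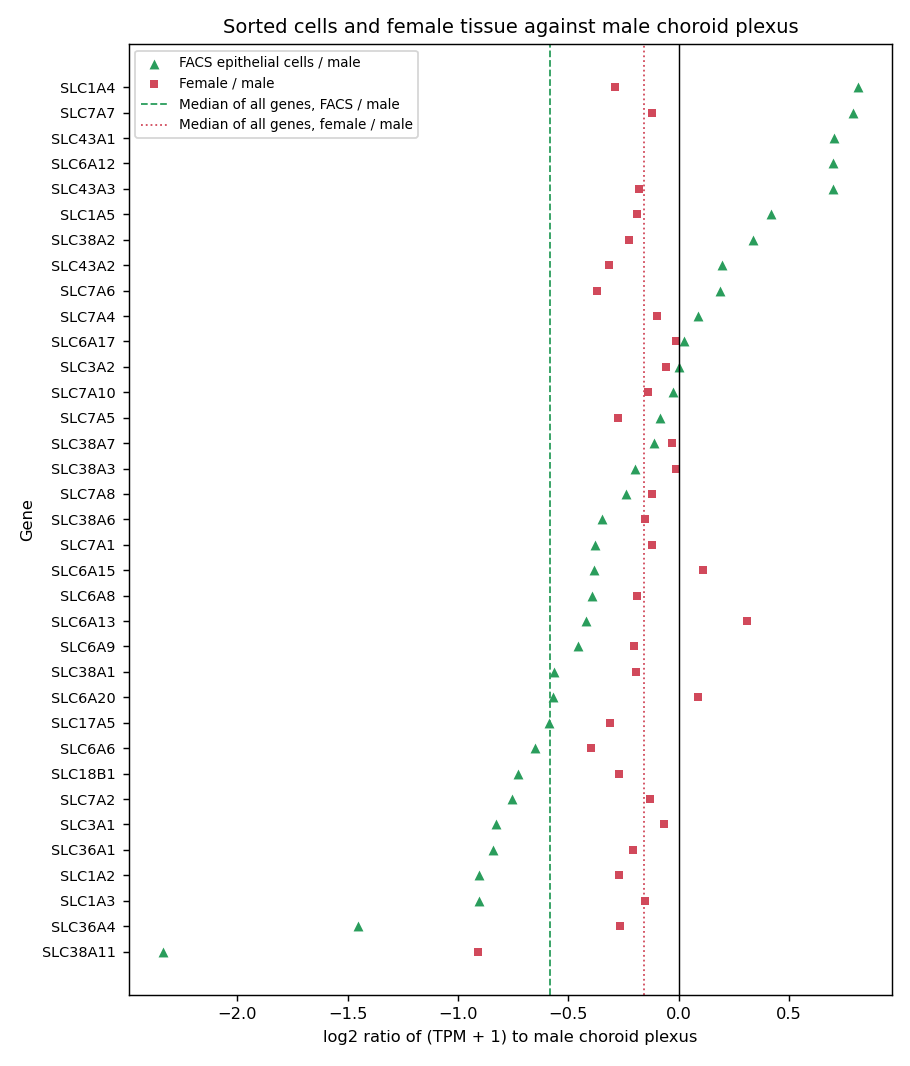
log2 ratio of TPM plus 1 to male choroid plexus (horizontal axis) for transporters compared in the FACS epithelial cells (triangles) and in female tissue (squares), with 1 library per condition. Dashed and dotted lines mark the medians over all genes, -0.58 and -0.16. SLC38A11 lies farthest to the left for both.

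Female and male choroid plexus were compared to look for differences between the sexes. Of 34 members compared, 0 were higher and 0 lower past 2-fold in the female library, while 0.44% of 13869 genes were higher and 0.959% lower. Relative to the median of all genes the counts were again 0 and 0, against 0.62% of genes higher and 0.757% lower. By sign alone 3 members were higher and 31 lower, where 3203 of all genes were higher and 10632 lower, and the median log2 ratio was -0.17 for the members and -0.16 for all genes. The order of levels was nearly the same, with a Spearman rho of 0.994 across the 34 genes.

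SLC38A11 had the lowest ratio of the group, at 0.471 (0.362 to 0.609, from 179 counts in the male and 92 in the female library), or -0.91 on the log2 scale with the pseudocount. The highest was that of the GABA carrier SLC6A13, at 1.64 (1.01 to 2.72, log2 ratio 0.31), from 29 and 44 counts. SLC6A15 at 1.15 (0.875 to 1.5) and SLC6A20 at 1.06 (0.994 to 1.14) were the others above 1. Of the abundant genes, SLC38A3 was at 0.991 (0.969 to 1.01), SLC3A2 at 0.960 (0.929 to 0.993), SLC6A8 at 0.876 (0.844 to 0.910), SLC7A5 at 0.821 (0.775 to 0.870) and SLC7A6 at 0.757 (0.691 to 0.829).

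For the comparison with the proximal tubule, another epithelium that moves large volumes of fluid, the mitochondrially encoded genes were removed from both libraries and TPM rescaled. Of 42 members compared, 11 were higher past 2-fold in the tubule, while 12.1% of 14227 genes were, and 28 were lower, while 71% of all genes were. The median log2 ratio was -2.08 for the members and -2.27 for all genes. Relative to that median, 15 members were higher past 2-fold against 33.7% of all genes and 13 lower against 34.7%. Across the 42 genes, Spearman's rho was -0.28. Because 8 of the members were chosen for being on the tubule list alone, part of these counts is set by the choice, and nothing is read from them.

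Among the genes that were higher in the tubule, SLC3A1 was 208-fold higher (193 to 225), at 3125 TPM rescaled. SLC7A13 reached 7371 TPM rescaled, and its ratio of 2.94e+05 has a counting interval of 5.27e+04 to 1.16e+07 because the male library had 1 count. SLC17A2, also with 1 male count, had a ratio of 304 (53.7 to 1.21e+04). Against a floor of 3 counts in the male library, SLC17A3 was at least 2062-fold higher, SLC7A9 at least 224-fold, SLC6A19 at least 175-fold, SLC6A18 at least 97.0-fold and SLC17A4 at least 47.3-fold. All of these genes except SLC3A1 were on the tubule list alone, so their direction is set by the choice and is no result.

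The glutamate carriers SLC1A1 and SLC1A2 were 73.4-fold (36.7 to 172) and 11.4-fold (6.26 to 22.6) higher in the tubule, SLC1A2 with 610 bases of effective length in the male library. SLC1A1 was on the tubule list alone, so its direction is also set by the choice. SLC7A7, which releases cationic amino acids at the basolateral side, was 3.24-fold higher (2.31 to 4.55), and SLC38A6 2.23-fold (1.72 to 2.89). The lysosomal carrier SLC17A5 was at a ratio of 0.658 (0.548 to 0.787). Of the genes with counts in both tissues, SLC38A6 and SLC17A5 were within 2-fold on the scale with the pseudocount.

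Lower in the tubule among genes with counts there, SLC38A3 was 186-fold lower (136 to 262), SLC3A2 28.9-fold (24.0 to 35.1) and SLC18B1 24.7-fold (18.9 to 32.7). SLC6A8 was 13.1-fold lower (11.4 to 15.1), SLC7A8 12.1-fold (10.6 to 13.9) and SLC38A2 3.76-fold (3.36 to 4.22). SLC3A2, SLC6A8, SLC7A8 and SLC38A2 had 1.54 to 2.09 TPM as deposited in the tubule, so their folds follow mainly the male level. A further 25 of the 36 members on the male or FACS lists were listed at 0 in the tubule library, up to SLC7A4 with 55.7 TPM in the male choroid plexus. A listed 0 was common in this library, since 670 of 1985 named genes that were abundant in the male choroid plexus were at 0 there. That is a smaller share than among these members, and only 2 of 74 ribosomal protein genes were at 0. The reason for the listed zeros was not tested, and no fold is given for the 25.

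**Figure D4:**
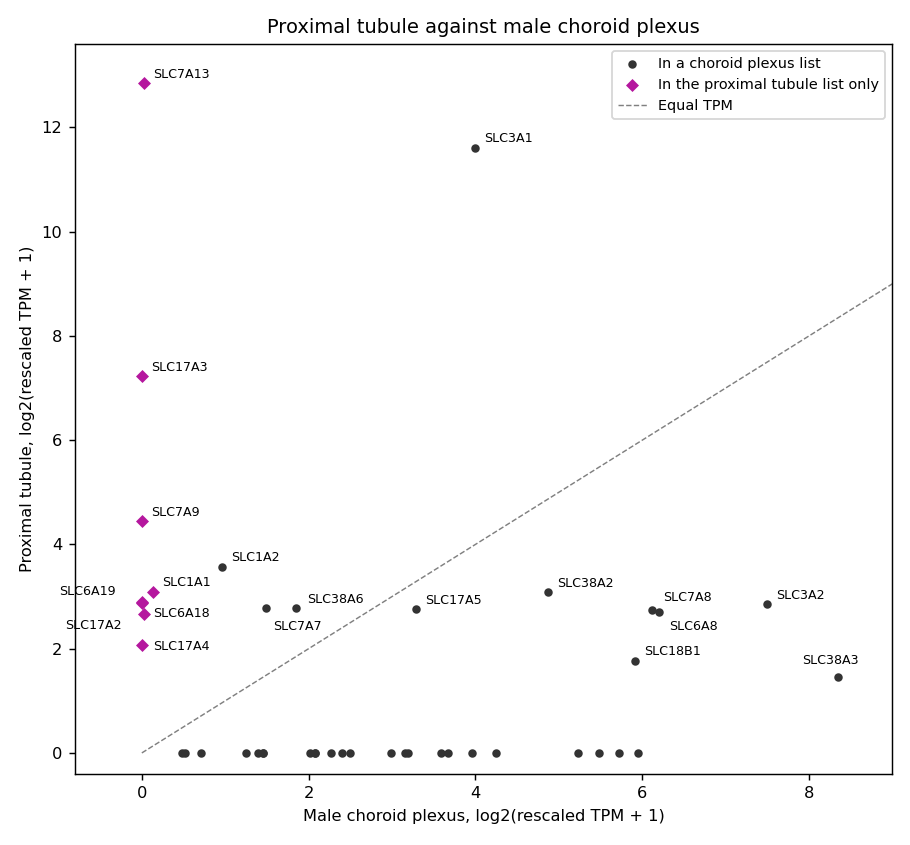
Proximal tubule (vertical axis) against male choroid plexus (horizontal axis), as log2 of TPM plus 1 after removal of mitochondrially encoded genes, with 1 point per transporter reported here and the dashed line at equal TPM. Diamonds are the 8 genes on the tubule list alone, SLC3A1 lies far above the line among the other genes, and a row of genes lies at 0 in the tubule.

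The levels of the genes with low tubule values were close together. Of the 19 members above 0 in the tubule, 11 lay between 1.48 and 2.10 TPM as deposited, from 91 to 342 counts each and effective lengths of 1484 to 4340 bases. Over all genes above 0, 20.3% of the tubule library lay between 1 and 2.5 TPM, against 9.23% in the male, 9.65% in the female and 12.1% in the FACS library. Differences in level among these 11 genes were small beside those in male choroid plexus, where the same genes ran from 0 TPM (SLC6A18 and SLC6A19) to 165 TPM (SLC3A2). The folds of these 11 genes, SLC7A7 and SLC38A6 among them, therefore follow mainly the male level. Of the genes detected, 2.65% had under 10 counts in the tubule library, against 15.8% in the male and 10.3% in the FACS library. Whether the counting intervals hold for the tubule library was not tested.

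Beside the carriers, 13 genes of amino acid handling, drawn up as a list, were read in the same libraries. In the FACS library 4 were higher and 8 lower than in the male, with a median log2 ratio of -0.48, where 3062 of all 14024 genes were higher and 10943 lower with a median of -0.58. In the tubule 2 of the 13 were higher and 11 lower, with a median of -4.46, where 2563 of all 14227 genes were higher and 11664 lower with a median of -2.27. CLTRN, which brings SLC6A19 and SLC6A20 to the membrane, had 298 TPM in the male, 246 TPM in the female, 302 TPM in the FACS and 3036 TPM in the tubule library, and was 33.5-fold higher in the tubule after rescaling (32.7 to 34.3). Of its partners, SLC6A20 had 39.9 TPM in the male library and a listed 0 in the tubule, and SLC6A19 had 0 counts in the male library and 1.80 TPM in the tubule. SLC6A20 was on the male and FACS lists and SLC6A19 on the tubule list alone. Their direction between the male and tubule libraries is therefore set by the choice and is no result.

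Of the enzymes on that list, GLUL, which makes glutamine, had 197, 173 and 128 TPM in the male, female and FACS libraries and 7.44 TPM in the tubule. The aspartate aminotransferases GOT1 and GOT2 had 86.0 and 243 TPM in the male library and 33.5 and 99.3 TPM in the FACS library. PHGDH, the entry enzyme of serine synthesis, had 101, 69.1 and 43.4 TPM and was listed at 0 in the tubule. CKB, the creatine kinase that acts on the substrate of SLC6A8, had 2748 TPM in the male, 2584 TPM in the female and 1599 TPM in the FACS library and was listed at 0 in the tubule.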

How the data were processed

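RNA from 4 pooled rat samples was sequenced by the authors, who mapped the reads to Rnor_6.0 with the annotation of Ensembl release 103 (STAR 2.7.2a) and quantified genes with RSEM 1.3.3. The authors deposited for each gene an expected count (an estimated number of reads, not always whole), its effective length and its TPM, and their FPKM was left out. The strandedness of the libraries is not given in the sources used here. The 44 members and all marker and pathway lists were chosen with earlier results of these data known. Names came from the lists of the study, which pair 2452 of 32883 IDs with a name. Of the 44 members, 1 is not reported here by name or value. The others are all named, and those at or above 10 TPM in a library or past 2-fold in a comparison are given in all 4 libraries. Ratios without a pseudocount and their Clopper-Pearson intervals were computed from counts and effective lengths, and intervals of TPM are exact Poisson intervals. Against the tubule, mitochondrially encoded genes were removed from TPM, which was then rescaled. Python 3.11.15, numpy 2.4.6, pandas 2.3.3, scipy 1.17.1 and matplotlib 3.10.9 were used, and the steps were tested on simulated data. Alternatives covered the cut-off, the pseudocount, the scaling and the reference library.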

Additional observations from a re-analysis of the deposited data

How the results depend on the processing

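With 1 library per condition, no library could be left out and no spread between animals is known. No paired analysis was possible because each condition has 1 library. Of the values recomputed, 79 stayed within the limits set for a change, 32 moved and 1 turned its sign. At a cut-off of 5 TPM, 19 members were transcribed in the male, 17 in the female, 19 in the FACS and 4 in the tubule library. The summed level in the male, female, FACS and tubule libraries was 1518, 1511, 1757 and 10333 TPM without the 10 highest genes of each, 1067, 969, 907 and 10752 TPM without mitochondrially encoded genes, and 2049, 2067, 2245 and 8310 as CPM, which scales counts by the library total alone. In the FACS library, a pseudocount of 0.1 gave 3 members higher and 7 lower past 2-fold, and one of 0.5 gave 5 lower. Higher past 2-fold were 5 members without the 10 highest genes, 4 as CPM and 1 with the female library as reference. Relative to the median of all genes, 5 members were higher, against 10.9% of all genes, and 1 was lower, against 6.03%. The median of the members turned to 0.012 without the 10 highest genes, with all genes at -0.25, and was -0.0016 by CPM, with all genes at -0.32. In the female library, a pseudocount of 0.1 gave 1 member lower past 2-fold. Apart from the counts relative to the median, the share of all genes past 2-fold was not computed for these alternatives. Nothing is read from those counts of members. In the tubule, the median was -4.39 and -2.90 with pseudocounts of 0.1 and 0.5, where all genes had -4.26 and -2.86. It was -2.54 without the 10 highest genes (all genes -2.60), -2.86 by CPM (-2.33) and -1.91 with the female reference (-2.11). Relative to the median of all genes, 13 members were lower past 2-fold in the tubule, against 34.7% of all genes. The cause of these changes was not tested beyond the construction of each alternative. The members on the low side carry few counts, such as 13 for SLC1A2 and 15 for SLC43A1 in the male library.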

Other observations

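Genes of solute carriers outside the 9 families were also measured, on the same list of 13 genes. SLC66A2 had 123 TPM in the male, 112 TPM in the female and 128 TPM in the FACS library, and its relative SLC66A3 had 38.6, 41.1 and 24.8 TPM. Both were listed at 0 in the tubule. Of the peptide carriers, SLC15A2 had 16.7, 13.8 and 11.7 TPM in the plexus libraries and 6.10 TPM in the tubule, a ratio of 1.20 to male choroid plexus after rescaling (1.10 to 1.3). SLC15A1 had 3.79, 3.88 and 2.86 TPM in the plexus libraries and 0.01 TPM in the tubule. The aromatic amino acid carrier SLC16A10 had 1.0, 0.98 and 1.0 TPM and was listed at 0 in the tubule.

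BSG, a chaperone of monocarboxylate carriers, had 3308 TPM in the male, 3502 TPM in the female, 4925 TPM in the FACS and 15.1 TPM in the tubule library. ATF4, the transcription factor of the response to amino acid shortage, had 190, 164 and 247 TPM in the plexus libraries and 1.70 TPM in the tubule.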
